A study of Canis lupus familiaris with 36 samples.

Results

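The comparison described here is that of CLBL-1 cells incubated for 48 h with AS-605240 alone (AS) and with the solvent dimethyl sulfoxide alone (DMSO). CLBL-1 is a cell line from a canine diffuse large B-cell lymphoma, and each library is a passage of this one line. The 6 libraries were chosen by their labels, out of 36 in the series, as the 3 AS and the 3 DMSO libraries at 48 h of passages p121, p126 and p128, which are replicates 1, 2 and 3. AS was given at 5 µM and had been dissolved in DMSO, so that cells of both groups were in contact with the solvent. The study set the DMSO of the control to that of cells given both inhibitors. Whether cells with AS alone had the same amount is not stated, so a difference in solvent could not be told apart from an effect of AS. Cells incubated with 5 µM AS or DMSO for 24 h or 72 h, with 1 µM Ibrutinib (Ibr) for 48 h, and with 1 µM Ibr plus 5 µM AS (Ibr + AS) for 48 h, each in the same 3 passages, are drawn on where they show how the effect at 48 h compares.

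AS-605240 is an inhibitor of PIK3CG, the gamma catalytic subunit of phosphoinositide 3-kinase. This kinase makes the membrane lipid that recruits AKT, and AKT acts on growth through mTOR and on transcription through FOXO factors. In B cells the B-cell receptor leads to activation of phosphoinositide 3-kinases. Its signal also passes through Bruton's tyrosine kinase, the target of Ibr, which docks on the same lipid. AKT and mTOR signalling are also known to promote the processing of SREBP2, the transcription factor that turns on the genes of sterol synthesis.

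The 6 libraries held between 11859040 and 13043278 reads on genes, and 3 reads corresponded to between 0.225 and 0.249 CPM (read counts scaled to library size). Of the B-cell markers that could be paired with a symbol, DLA-DRA (an MHC class II chain) had 2715 to 3304 CPM in the 6 libraries and TNFRSF13C (the BAFF receptor) 101 to 135, while NFAM1 had no read. The T-cell markers summed to at most 0.826 CPM in any of these libraries, with IL13 at 0. Of the other marker lists, the stromal one (COL14A1 and FBN2 at 0) reached 23.9 CPM, the epithelial one 30.8 and the melanocyte one 1.85, and 2 myeloid markers were at hand at high levels, LYZ (65 to 97.9 CPM) and ANXA1 (76.6 to 102), while TREM2 and DCSTAMP had 0 to 5 reads. Nearly all of the stromal sum came from PTCH1 (DMSO mean 20.2 CPM), and nearly all of the epithelial sum from ESRP1 and ERBB3 (18.6 and 8.49 CPM). In bulk RNA, fewer cells of a kind and less RNA per cell cannot be told apart.

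AS lowered more genes than it raised at 48 h. A gene was called differentially expressed (DEG) at a Benjamini-Hochberg adjusted p of at most 0.05 in edgeR's quasi-likelihood test and a log2 fold change (FC) beyond 1 in either direction. Of 18670 genes tested, 95 were DEGs with a lower level (0.509%) and 19 with a higher level (0.102%), in all 114 (0.611%). On the p-value alone, 684 genes passed (3.66%), of which 392 were lower (2.1%) and 292 higher (1.56%). Before adjustment, 2535 of the 18670 genes had a p under 0.05 in this test. Over all genes the median log2 FC was 0.00, and 47.6% of the values were below 0.

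**Figure D1:**
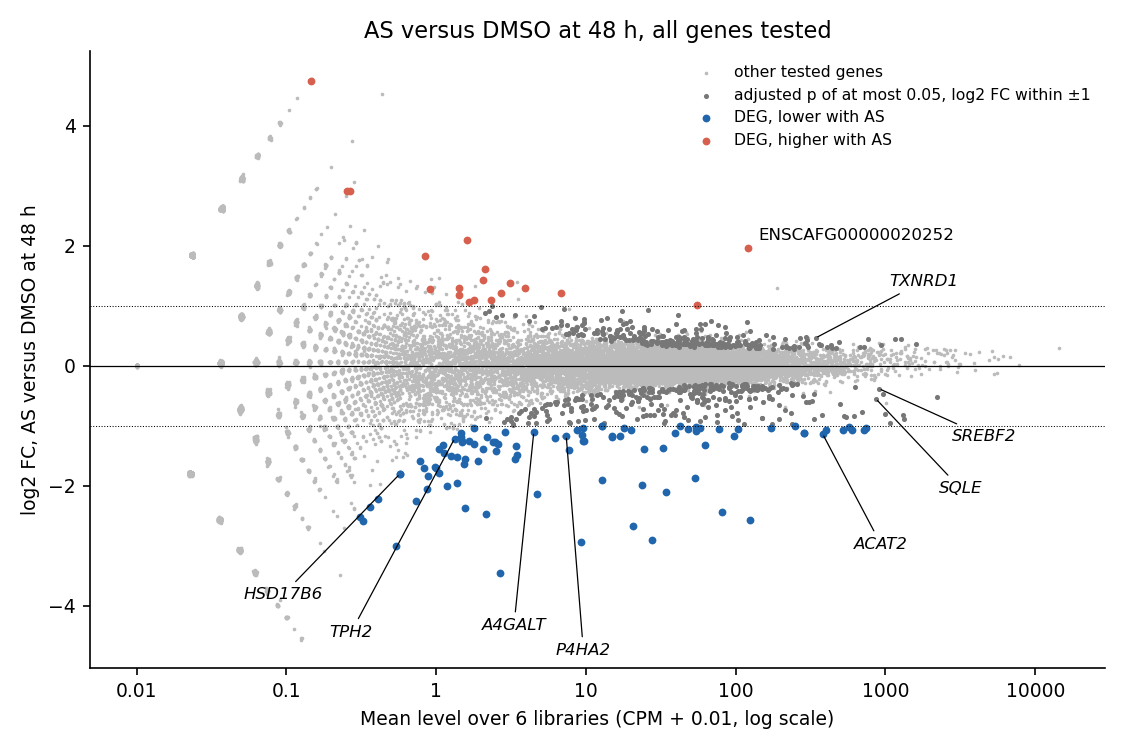
Mean level over the 6 libraries at 48 h (CPM, log axis) against the log2 FC of AS versus DMSO for 18670 genes, with dotted lines at the fold change limits. Dark grey points passed the p-value only, blue points mark the 95 DEGs that were lower with AS and red points the 19 that were higher; 16 of the blue genes had a DMSO mean of at least 100 CPM, and 1 of the red genes an AS mean of that size.

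The lowered DEGs included well expressed genes, and the raised ones hardly any. The DMSO mean was at least 10 CPM for 46 of the 95 lower genes and at least 100 CPM for 16, whereas the AS mean reached 10 CPM for 2 of the 19 higher genes and 100 CPM for 1. The median log2 FC was -1.30 for the lower genes and 1.30 for the higher ones. In 5 lower and 3 higher genes all libraries of one group held 3 reads or fewer, and with these set to the bound that 3 reads allow, the medians were -1.27 and 1.22. Of the 95 lower genes, 37 had a log2 FC between -1 and -1.2, 14 of them with a DMSO mean of at least 100 CPM, and 54 further genes passed the p-value with a log2 FC between -0.8 and -1. The lower gene nearest the limit inside had -1.004 and the nearest outside -0.98, and for higher genes the values were 1.01 and 0.99.

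The DEGs went the same way in each passage. All 19 higher and 94 of the 95 lower genes had the same direction in the 3 pairs of libraries of one passage, and for the same numbers the AS and DMSO libraries did not overlap. Over all genes tested, the groups did not overlap in 20%. Since the DEGs were chosen from the same libraries, their agreement between passages is largely built in. The median log2 difference of the 95 genes was -1.20 in passage p121, -1.28 in passage p126 and -1.26 in passage p128, and that of the 19 genes was 1.24, 1.21 and 1.63. The sample-sheet numbers in the table header part the libraries into 2 runs. Under this inference both libraries of passage p121 belong to run 1 and both of passage p128 to run 2, so that their values are within-run values, while passage p126 has DMSO in run 1 and AS in run 2. Without passage p126, 117 DEGs were called, and 84 of them were among the 114.

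Symbols could be paired with 1068 of the tested genes (5.72%), and the genes named from here on come from these. They are not a sample of all genes, since the pairs come from limited stretches of the identifiers. Among them 5 were DEGs, each lower with AS, and 47 passed the p-value, 24 lower and 23 higher. In each of these 47 genes, the direction was the same in all 3 passages and the AS and DMSO libraries did not overlap. The same libraries chose these genes, so this is largely built in. The log2 FC of the lower genes that were not DEGs lay between -0.31 and -0.87, and that of the higher ones between 0.31 and 0.91.

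Genes of sterol synthesis were among those that fell. ACAT2 (ENSCAFG00000000720), the cytosolic thiolase that joins acetyl-CoA units at the start of the mevalonate pathway, had 478, 526 and 569 CPM in the DMSO libraries of passages p121, p126 and p128. With AS it had 257, 235 and 225 CPM. Every AS library was far below every DMSO library, and the fall was deepest in passage p128 and smallest in passage p121. The log2 FC was -1.14 (standard error 0.09, adjusted p = 5.54e-19), a 2.20-fold lower level, and by its p-value ACAT2 ranked 4 among the 18670 genes.

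SQLE (ENSCAFG00000001056), squalene epoxidase, which catalyses the first oxygenation step on the way to sterols, had 928, 1067 and 1091 CPM with DMSO and 721, 711 and 674 CPM with AS. Its log2 FC was -0.55 (standard error 0.10, adjusted p = 2.13e-05). SREBF2 (ENSCAFG00000001013), which encodes SREBP2 itself, had 1103, 957 and 1027 CPM with DMSO and 762, 815 and 787 CPM with AS, a log2 FC estimated at -0.38 (standard error 0.09, adjusted p = 0.00284). The AS libraries of both genes were closer to each other than the DMSO libraries, and all lay below them.

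Of the 18 paired genes of sterol and lipid metabolism, these 3 fell, 1 rose and 14 did not pass the test. The gene that rose, HACD4, encodes a dehydratase of the elongation of very long fatty acids, and had 14.5, 17 and 17.9 CPM with DMSO and 24.8, 19.1 and 23 CPM with AS. Its log2 FC was 0.43 (standard error 0.13, adjusted p = 0.0352). The median over the 18 genes was 0.04, near that of all genes, so that the list as a whole did not shift. The summed level of the list was 3082 to 3269 CPM in the DMSO libraries and 2308 to 2347 CPM in the AS libraries, without overlap. Most of this sum came from ACAT2, SQLE and SREBF2, with DMSO means of 524, 1029 and 1029 CPM and AS means of 239, 702 and 788 CPM. The fall of the sum thus mainly restates the falls of these 3 genes. ACAT2, SQLE and SREBF2 kept their calls without each passage and without each of the 6 libraries in turn, while HACD4 lost its call in 6 of these 9 fits, with a log2 FC of 0.24 without passage p121, and also with DESeq2, RLE factors and filterByExpr (adjusted p = 0.056, 0.0521 and 0.0571).

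The other named DEGs were P4HA2, A4GALT, TPH2 and HSD17B6. P4HA2 (ENSCAFG00000000824), a catalytic subunit of collagen prolyl hydroxylase and known as inducible by hypoxia, had 9.8, 8.56 and 12.3 CPM with DMSO and 3.9, 3.7 and 5.99 CPM with AS. Its log2 FC was -1.17 (standard error 0.19, adjusted p = 9.07e-06). P4HA2 was 1 of 9 paired genes of the hypoxia list to pass the test, the other 8 did not, and the median of that list was -0.02. Without the DMSO library of passage p128 its log2 FC was -0.97, within the fold change limit.

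A4GALT (ENSCAFG00000000946), the galactosyltransferase that makes the glycolipid globotriaosylceramide, had 5.14, 7.14 and 6.09 CPM with DMSO and 2.41, 3.47 and 2.63 CPM with AS. The log2 FC was -1.11 (standard error 0.23, adjusted p = 0.000951), and -0.99 without the AS library of passage p128. With all 36 libraries its adjusted p was 0.072. TPH2 (ENSCAFG00000000462), a tryptophan hydroxylase known from serotonin synthesis in neurons, was close to the detection limit, with 17, 32 and 23 reads with DMSO and 9, 8 and 12 reads with AS. HSD17B6 (ENSCAFG00000000143), a hydroxysteroid dehydrogenase, was lower still, with 8, 11 and 15 reads with DMSO and 3, 2 and 4 reads with AS. For both the groups did not overlap and the log2 FCs were -1.21 (standard error 0.36, adjusted p = 0.03) and -1.81 (standard error 0.55, adjusted p = 0.0386). These 2 calls rest on few reads: TPH2 lost its call in 7 and HSD17B6 in 8 of the 9 fits without a passage or a library, with adjusted p up to 0.413 and 0.226.

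SLA, NAB2 and AKAP12 fell by less than the fold change limit. SLA, an adaptor that restrains antigen receptor signalling in lymphocytes, had 11.5, 10.7 and 15.6 CPM with DMSO and 7.23, 7.25 and 8.13 CPM with AS. The log2 FC was -0.74 (standard error 0.15, adjusted p = 0.000252). NAB2, a corepressor of the EGR transcription factors, had 24.4, 22.5 and 26.5 CPM with DMSO and 15.4, 15.3 and 16.7 CPM with AS. The AS libraries of NAB2 lay in a narrow band below all DMSO libraries, and its log2 FC was -0.63 (standard error 0.13, adjusted p = 0.000269). AKAP12, a scaffold for protein kinases A and C, had the same log2 FC of -0.63 (standard error 0.18, adjusted p = 0.0241), from 7.95, 8.79 and 10.9 CPM to 5.23, 5.51 and 7.06 CPM, and lost its call in 6 of the 9 fits.

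The smallest p-value among these smaller changes was that of SBF1, a pseudophosphatase of the myotubularin family. It had 672, 520 and 640 CPM with DMSO and 380, 401 and 389 CPM with AS, a log2 FC estimated at -0.64 (standard error 0.09, adjusted p = 3.44e-08). The DMSO libraries of SBF1 spread more than the AS libraries, which all lay below 402 CPM. The log2 FCs of the others were -0.87 for SERPINB2 (an inhibitor of plasminogen activators), -0.68 for RPP21 (a subunit of ribonuclease P), -0.55 for UST (a sulfotransferase of glycosaminoglycans), -0.53 for PTCH1 (the Hedgehog receptor) and -0.45 for FAM118A. Of the 9 genes in this group, SLA, NAB2, SBF1 and FAM118A kept their calls in all of the 9 fits and SERPINB2 in 0 of them.

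Few amino acid and cell cycle genes passed the test, and their changes were small. PSAT1, an aminotransferase of serine synthesis, had 236, 240 and 224 CPM with DMSO and 173, 191 and 178 CPM with AS, and MARS1, the methionyl-tRNA synthetase, had 146, 152 and 146 CPM with DMSO and 111, 115 and 114 CPM with AS. Their log2 FCs were -0.37 (adjusted p = 0.00449) and -0.38 (adjusted p = 0.00307), each with a standard error of 0.09. They were 2 of 10 paired genes of ATF4, serine synthesis and tRNA charging to fall, with 8 not passing, among them SHMT2 at -0.28 (adjusted p = 0.0824). In the cell cycle list, 2 of 28 genes fell, CDC25C, a phosphatase of mitotic entry, with a log2 FC of -0.39 (adjusted p = 0.0213) and TONSL, a replication fork repair protein, with -0.34 (adjusted p = 0.0265), and 26 did not pass. Both lost their calls in 6 of the 9 fits without a passage or a library, with adjusted p up to 0.308 for CDC25C and 0.527 for TONSL, whose log2 FC was -0.20 without passage p121. The summed level of the 28 genes was 4538 to 4726 CPM with DMSO and 4765 to 4908 CPM with AS, higher with AS and without overlap. The median log2 FC of this list was 0.00, with a range from -0.39 to 0.37 among members of at least 1 CPM. At an unadjusted p under 0.05 in edgeR were 9 of these 28 genes, falls and rises together, and 4 of the 10 genes of the ATF4 list.

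None of the 19 DEGs with a higher level had a paired symbol. TXNRD1 (ENSCAFG00000001944), thioredoxin reductase, a known target of the oxidative stress factor NRF2, had 281, 295 and 287 CPM with DMSO and 391, 406 and 397 CPM with AS. This was the tightest of the rises, with a log2 difference of 0.47, 0.46 and 0.47 in passages p121, p126 and p128, and a log2 FC estimated at 0.47 (standard error 0.09, adjusted p = 4.34e-05). It was the only one of 8 paired genes of oxidative stress and heme to pass, and without passage p128 its adjusted p was 0.0555.

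GOLM1 and MAN2A1 also rose. GOLM1, a Golgi membrane protein, had 52, 46.4 and 40.8 CPM with DMSO and 64.7, 72.8 and 75.5 CPM with AS, which gave 0.61 on the log2 scale (standard error 0.12, adjusted p = 0.000675). MAN2A1, a mannosidase that trims N-glycans in the Golgi, had 72.4, 69.2 and 66.6 CPM with DMSO and 98.1, 106 and 102 CPM with AS, a log2 FC estimated at 0.55 (standard error 0.15, adjusted p = 0.0363). MAN2A1 lost its call in 6 of the 9 fits and with all 36 libraries (adjusted p = 0.0624). In the list of ER folding and the secretory pathway, 0 of 15 paired genes passed in edgeR and 3 had an unadjusted p under 0.05. The other rises were 0.91 for RASGEF1C (a guanine nucleotide exchange factor), 0.68 for NFIB (a transcription factor), 0.58 for WBP2NL, 0.53 for NRBP2 (a pseudokinase), 0.52 for AIG1 (a lipid hydrolase), 0.49 for GKAP1 and 0.45 for RNF19A (a ubiquitin ligase). Each of these 9 genes and TXNRD1 lost the call in at least 1 of the 9 fits without a passage or a library, RASGEF1C in all 9.

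Among DEGs whose mean reached 1 CPM, the largest changes were in genes that the tables at hand do not pair with a symbol. ENSCAFG00000020252 had 48.3, 55.3 and 43.8 CPM with DMSO and 189, 201 and 187 CPM with AS. It had the smallest p-value of all genes, with a log2 FC estimated at 1.97 (standard error 0.11, adjusted p = 3.36e-20), a 3.91-fold higher level. ENSCAFG00000015683 rose from 7, 9 and 7 reads to 33, 22 and 40 reads, a log2 FC estimated at 2.10 (standard error 0.49, adjusted p = 0.0127), and lost its call in 4 of the 9 fits. The falls were larger than that of any named gene. ENSCAFG00000007609 had 5.06, 4.58 and 4.93 CPM with DMSO and 0.498, 0.473 and 0.328 CPM with AS, a log2 FC estimated at -3.45 (standard error 0.33, adjusted p = 3.2e-15). ENSCAFG00000015708 had 13.4, 13.8 and 22.2 CPM with DMSO and 1.58, 1.73 and 3.12 CPM with AS, a log2 FC estimated at -2.93 (standard error 0.35, adjusted p = 6.36e-06).

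Among the paired genes listed for the pathway that AS acts on, none passed the test. The list of paired genes used here lacks PIK3CG, its partners PIK3R5 and PIK3R6, PIK3CD and the AKT genes, so it does not speak to them. With AS at 48 h the study marks PIK3CD as lower and, in part of its listing, PIK3R5 and PIK3R6 as higher, all within the fold change limit. Of 15 genes of the PI3K, AKT, mTOR and FOXO axis, 0 passed in edgeR and 3 had an unadjusted p under 0.05, with a median log2 FC of 0.00. PIK3R1, a regulatory subunit of phosphoinositide 3-kinase other than the partners of PIK3CG, had 64.2, 56.7 and 57.7 CPM with DMSO. With AS it had 63.5, 60.4 and 63.3 CPM, and the libraries overlapped. INPP5D, the phosphatase SHIP that removes the lipid made by this kinase, had 866 to 995 CPM with DMSO and 762 to 828 CPM with AS, a log2 FC of -0.18 (adjusted p = 0.409). PRR5, a subunit of mTOR complex 2, had 167.6 to 188.0 CPM with DMSO and 135.6 to 159.4 CPM with AS, with a log2 FC of -0.24 (adjusted p = 0.161). FBXO32, a ubiquitin ligase known as a FOXO target, had 3 to 5 reads with DMSO and 9 to 11 reads with AS, a log2 FC estimated at 1.36 (standard error 0.50, adjusted p = 0.124).

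The lists of paired genes of B-cell receptor signalling, cytokines and antigen presentation likewise gave no calls. SLA, the adaptor of antigen receptor signalling described above, is not on these lists and did pass, with a log2 FC of -0.74. BTK, CD79A and CD79B are not on the lists either, and the study marks BTK as slightly higher with AS at 48 h. Of 18 genes of B-cell receptor, calcium and NF-kB signalling 0 passed (3 at an unadjusted p under 0.05), and the lowest p was that of the transcription factor NFATC1, with 48.9 to 52.4 CPM with DMSO, 40 to 42 CPM with AS and a log2 FC of -0.32 (adjusted p = 0.0653). Of 14 genes of cytokines and their receptors 0 passed (1 at an unadjusted p under 0.05). IL23A, a cytokine subunit, had 2.01, 1.35 and 3.16 CPM with DMSO and 0.831, 1.97 and 0.821 CPM with AS, and its groups overlapped. Of 7 antigen presentation genes 0 passed (1 at an unadjusted p under 0.05), with a median log2 FC of -0.12 and a range from -0.25 to 0.08.

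The remaining lists held at most 1 call each. In the immediate early list, 1 of 12 genes fell, NAB2, and the others included TRIB1, a pseudokinase, with 35.7 to 52.9 CPM with DMSO, 18.3 to 38.9 CPM with AS and a log2 FC estimated at -0.65 (standard error 0.23, adjusted p = 0.16). MYC, MYB and BCL2 had log2 FCs of -0.08, -0.21 and -0.04 with adjusted p of 0.781, 0.403 and 1. In the actin and adhesion list 1 of 17 fell, AKAP12, and among stromal markers 1 of 5, PTCH1. Ribosomal protein and translation genes had the highest median, 0.11 over 14 genes, with a range from -0.08 to 0.27, and 0 passed (3 at an unadjusted p under 0.05). Their summed level was 21760 to 23029.5 CPM with DMSO and 24043.8 to 25782.4 CPM with AS, without overlap. In edgeR, 0 of 11 interferon, 0 of 9 survival and 0 of 13 mitochondrial genes passed, with 1, 1 and 2 at an unadjusted p under 0.05, and the B-cell, T-cell, myeloid, epithelial and melanocyte markers gave 0 calls, with 1, 0, 0, 1 and 1 such genes. All lists together are to be read against the 3.66% of all genes that passed.

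**Figure D2:**
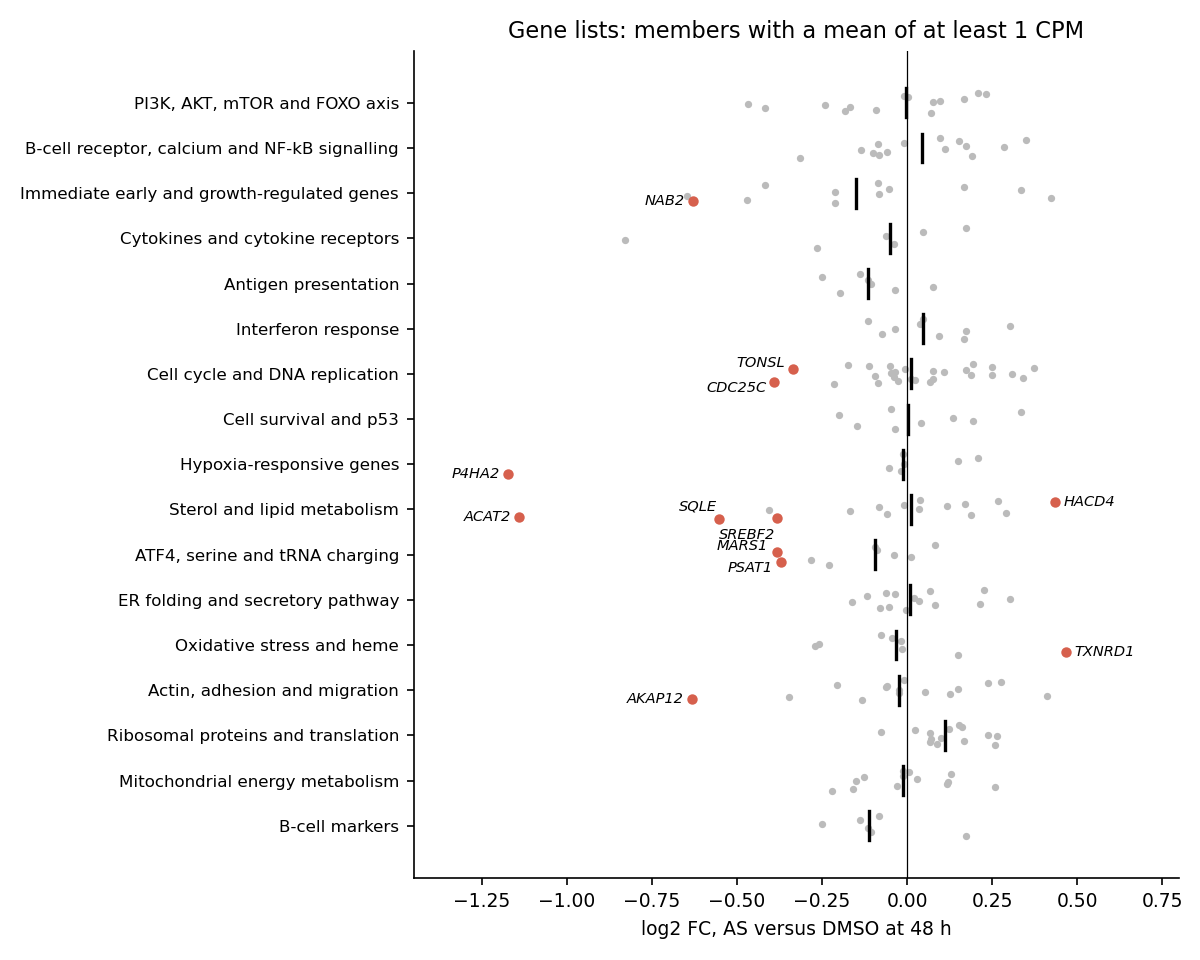
Log2 FC of AS versus DMSO at 48 h for those members of 17 lists of paired genes whose mean reached 1 CPM. Red points with a symbol passed an adjusted p of 0.05, grey points did not, and the black bar is the median of the list; the calls stand apart as single genes, and no median lies beyond -0.15 or 0.11.

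With regard to incubation time, the effect on ACAT2 was deepest at 48 h. With DMSO, ACAT2 had 231 ± 21.1 CPM (mean ± SD, n = 3) at 24 h, 524 ± 45.8 at 48 h and 518 ± 31.1 at 72 h, and with AS 184 ± 15.5, 239 ± 16.4 and 392 ± 38.3 CPM. With DMSO the level at 48 h was thus already that of 72 h, while with AS it lay close to the DMSO level at 24 h. Beside the -1.14 at 48 h, the log2 FCs of AS were -0.33 at 24 h (adjusted p = 0.0319) and -0.41 at 72 h (adjusted p = 0.000534). The effect at 48 h was larger than at 24 h by -0.81 (standard error 0.13, adjusted p = 2.18e-05), and at 72 h smaller than at 48 h by 0.73 (standard error 0.13, adjusted p = 6.9e-05).

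For P4HA2 and SQLE the effect was also smaller at 72 h than at 48 h. These genes, like ACAT2, were named for their change at 48 h, and the contrasts between times use the same libraries at 48 h. A smaller effect at the other times is thus partly built in. P4HA2 had 2.11 ± 0.626, 10.2 ± 1.92 and 11.4 ± 2.32 CPM with DMSO at 24, 48 and 72 h (SD, n = 3), and 2.2 ± 0.432, 4.53 ± 1.27 and 13.8 ± 4.67 CPM with AS. AS made a difference of 0.05 at 24 h and 0.26 at 72 h on the log2 scale, neither of which passed, and the effect at 72 h differed from that at 48 h by 1.44 (standard error 0.26, adjusted p = 0.000164). The change of the effect from 24 h to 48 h was -1.22 with an adjusted p of 0.0876. For SQLE the log2 FCs were -0.38, -0.55 and -0.09 at 24, 48 and 72 h, with a difference of 0.47 between 72 h and 48 h (standard error 0.14, adjusted p = 0.0355), while the difference of -0.18 between 48 h and 24 h did not pass (adjusted p = 0.875). For SREBF2 they were -0.02, -0.38 and -0.05, and neither difference passed (adjusted p = 0.273 and 0.142).

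Other genes kept or enlarged their difference. For A4GALT the log2 FCs at 24, 48 and 72 h were 0.33, -1.11 and -0.97, and only the step from 24 h to 48 h passed, with -1.44 (standard error 0.31, adjusted p = 0.0103). TXNRD1 fell with DMSO from 383 ± 14.6 CPM at 24 h to 288 ± 7.1 at 48 h and 229 ± 10.5 at 72 h (SD, n = 3), whereas with AS it had 396 ± 23.8, 398 ± 7.54 and 317 ± 7.93 CPM. PSAT1 differed little at 24 h and 48 h, with log2 FCs of -0.35 and -0.37, but reached -1.95 at 72 h, where DMSO had risen to 642 ± 59.1 CPM and AS stood at 166 ± 7.94 (SD, n = 3). The difference of the effect between 72 h and 48 h was -1.58 (standard error 0.13, adjusted p = 8.7e-19). ENSCAFG00000020252 was higher with AS at each time, with log2 FCs of 1.53, 1.97 and 1.48.

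**Figure D3:**
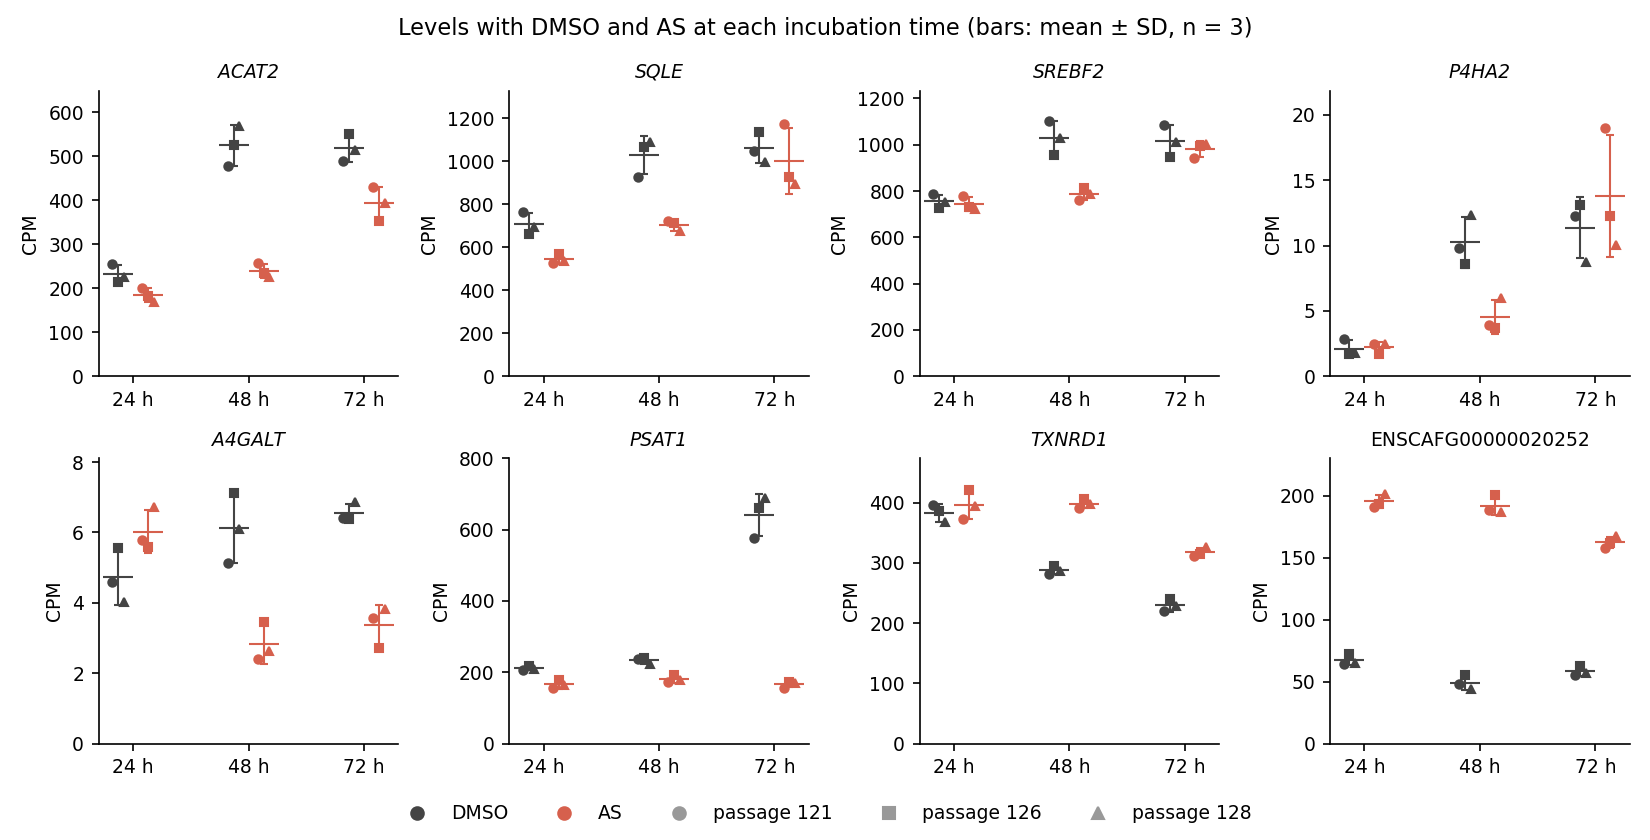
Levels (CPM) of 8 genes with DMSO (dark) and AS (red) after 24, 48 and 72 h, with 1 symbol per library and bars for the mean ± SD of 3 passages. ACAT2, SQLE and P4HA2 are apart at 48 h and closer at 72 h, PSAT1 is apart mainly at 72 h, and ENSCAFG00000020252 is apart at all times.

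Over all genes, the contrast of the AS effect at 48 h with that at 24 h was past the limits for 25 genes (0.134%), 24 of them towards a lower level at 48 h (0.129%) and 1 towards a higher one (0.00536%). Between 72 h and 48 h, 117 genes (0.627%) passed, 60 towards a higher level at 72 h (0.321%) and 57 towards a lower one (0.305%). On the p-value alone, 0.428% and 3.24% of all genes passed in these contrasts. Whether the number of genes differed between the intervals was not tested. The count of 25 depends on which libraries are used. It was 13 without the DMSO library of passage p128 and 46 without passage p121, and the count of 117 was 76 without passage p126.

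The 114 DEGs were then followed at the other incubation times. The libraries at 24 h and 72 h are not part of the contrast that chose the genes, but they entered the same fit and so its dispersions and passage terms. With AS at 24 h, 76 of the 95 lower genes were also below DMSO, with a median log2 FC of -0.39, and 22 passed the p-value lower and 0 higher, where 1.03% of all genes were lower at an adjusted p of 0.05 and 1.49% higher. At 72 h, 84 were below DMSO, with a median of -0.91, and 63 passed lower and 0 higher, against 6.4% and 6.8% of all genes. Of the 19 higher genes, 18 were above DMSO at 24 h, with a median of 0.84, and 14 at 72 h, with a median of 1.06. With genes at 3 reads or fewer in one group set to their bound, and those at 3 or fewer in both left out, these medians were -0.39, -0.91, 0.84 and 1.16. The median over all genes was 0.01 at 24 h and 0.00 at 72 h. The median at 72 h was 0.44 for the genes called higher without the DMSO library of passage p128. Since the genes were chosen for their value at 48 h, smaller values at other times are partly built in.

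Most of the genes lowered by AS at 48 h were genes that rise in culture with DMSO alone. From 24 h to 72 h with DMSO, in libraries outside the contrast at 48 h, 87 of the 95 genes had a value above 0 and 8 below 0, with a median log2 change of 1.54. Of the 95 genes, 65 were DEGs with a higher level at 72 h, and 4 were DEGs with a lower one, where 4.43% and 1.33% of all genes were. The median change was 1.59, 1.48 and 1.49 in passages p121, p126 and p128, and over all genes it was 0.02. With AS, the same 95 genes changed from 24 h to 72 h by a median of 1.06 (1.05 with bounds), with 47 DEGs higher and 3 lower, against 0.948% and 0.236% of all genes. The 19 genes raised by AS gave a median of -0.21 with DMSO (-0.24 with bounds) from 24 h to 72 h, with 2 DEGs in each direction. Named examples are P4HA2, which rose with DMSO by 2.42 on the log2 scale, ACAT2 by 1.17 and SQLE by 0.58, whereas TXNRD1 changed by -0.74.

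**Figure D4:**
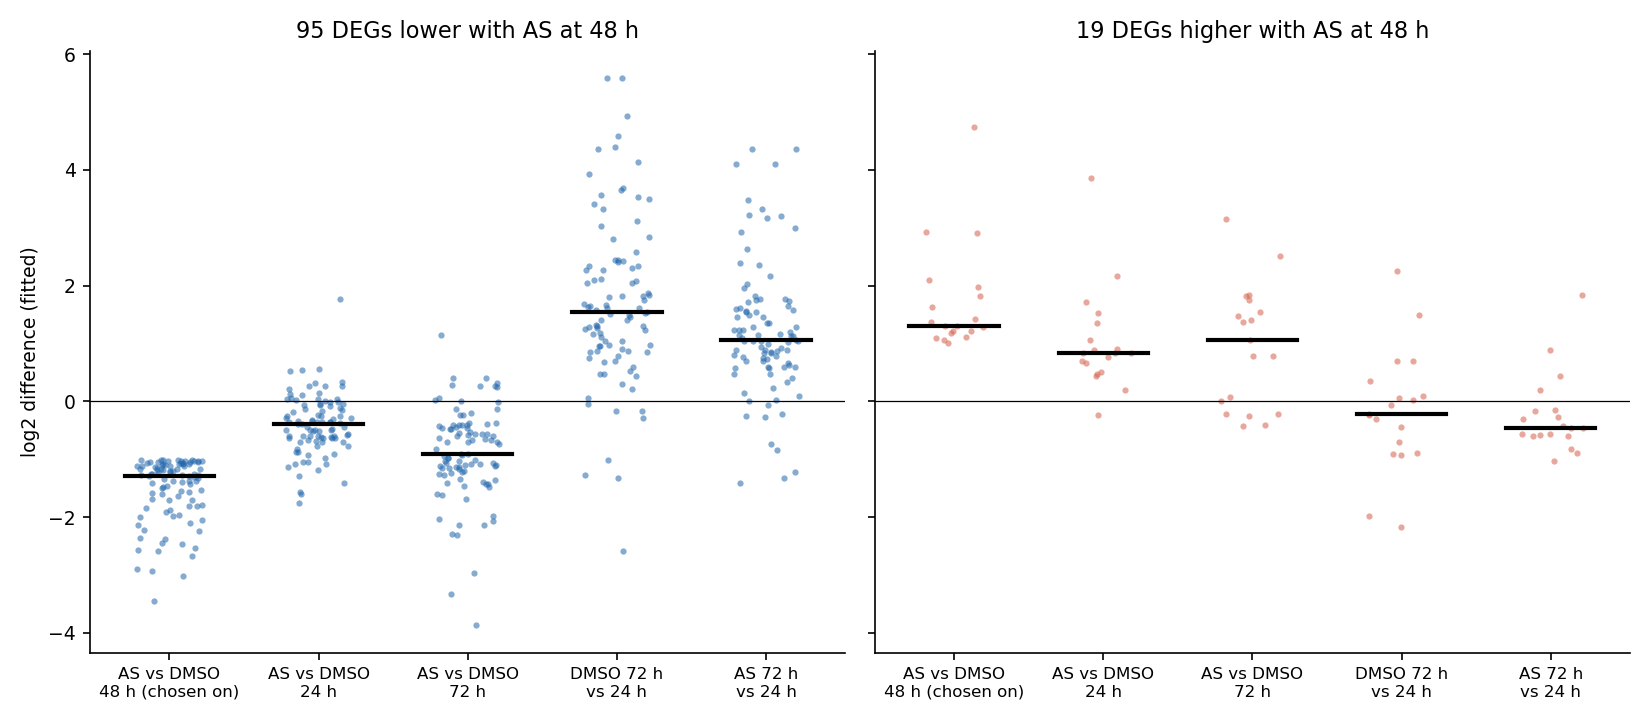
Fitted log2 differences of the 95 genes lower (left) and the 19 genes higher (right) with AS at 48 h in 5 comparisons, with 1 point per gene and a bar at the median. The first column is the contrast by which the genes were chosen, and all columns come from one fit; the 95 genes lie mostly above 0 from 24 h to 72 h, with a median of 1.54 for DMSO and 1.06 for AS.

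The effect of AS was also set against that of Ibr at 48 h. The 3 DMSO libraries are shared by both comparisons and by that of Ibr + AS, so that agreement between them is partly built in, and only the direct comparison of AS with Ibr tests a difference. In the order AS, Ibr, Ibr + AS, the log2 FCs for ACAT2 were -1.14, -1.46 and -1.90, for P4HA2 -1.17, -1.80 and -2.29, for SQLE -0.55, -0.69 and -1.72, and for A4GALT -1.11, -0.55 and -0.88. For ENSCAFG00000007609 the values were -3.45, -3.79 and -4.12. In the direct comparison, 62 genes were past the limits (0.332%), 28 with a higher level with AS (0.15%) and 34 with a lower one (0.182%). The 95 lower genes gave 0 DEGs in this comparison, 4 at an adjusted p of at most 0.05 with a higher level with AS (0.546% of all genes) and 2 with a lower one (1.12%), and of the 19 higher genes 2 were DEGs higher and 3 DEGs lower with AS.

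Of the 47 paired genes that passed for AS, 9 also differed between AS and Ibr, where 1.67% of all genes did. Since the same AS libraries chose the 47 genes, a share above that of all genes is partly built in. ENSCAFG00000020252, which has no symbol, is described beside them. It had 58.7, 63.3 and 61.9 CPM with Ibr against 189, 201 and 187 CPM with AS, a difference of 1.65 on the log2 scale (standard error 0.11, adjusted p = 4.21e-17), and with Ibr + AS its log2 FC against DMSO was 3.03. TXNRD1 had 295, 280 and 299 CPM with Ibr, close to the 281 to 295 CPM of the DMSO libraries, and was higher with AS by 0.45 (standard error 0.09, adjusted p = 0.000275). SLA stood out by its direction. It had 18.4, 14.2 and 15.9 CPM with Ibr and 7.23, 7.25 and 8.13 CPM with AS, a difference of -1.10 (standard error 0.15, adjusted p = 3.69e-08), with log2 FCs against DMSO of -0.74 for AS and 0.36 for Ibr (adjusted p = 0.0866).

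AKAP12 and NAB2 fell less with AS than with Ibr. AKAP12 was higher with AS than with Ibr by 0.96 (standard error 0.22, adjusted p = 0.00361) and NAB2 by 0.84 (standard error 0.14, adjusted p = 2.45e-05). The same was found for PTCH1, with 0.54 (adjusted p = 0.0424), and ACAT2, with 0.32 (adjusted p = 0.0474). GOLM1 rose less with AS than with Ibr, by -0.48 (adjusted p = 0.016). Other genes did not pass, with 95% intervals (1.96 standard errors) from -0.05 to 0.33 for SQLE, from -0.11 to 0.24 for SREBF2, from -0.15 to 0.20 for PSAT1 and from -0.20 to 0.16 for SBF1. FBXO32, which did not pass for AS, had a log2 FC of 3.03 with Ibr and was lower with AS than with Ibr by -1.66 (standard error 0.34, adjusted p = 0.000943). The number of DEGs between AS and Ibr was 39 without the AS library of passage p126 and 101 without passage p121.

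**Figure D5:**
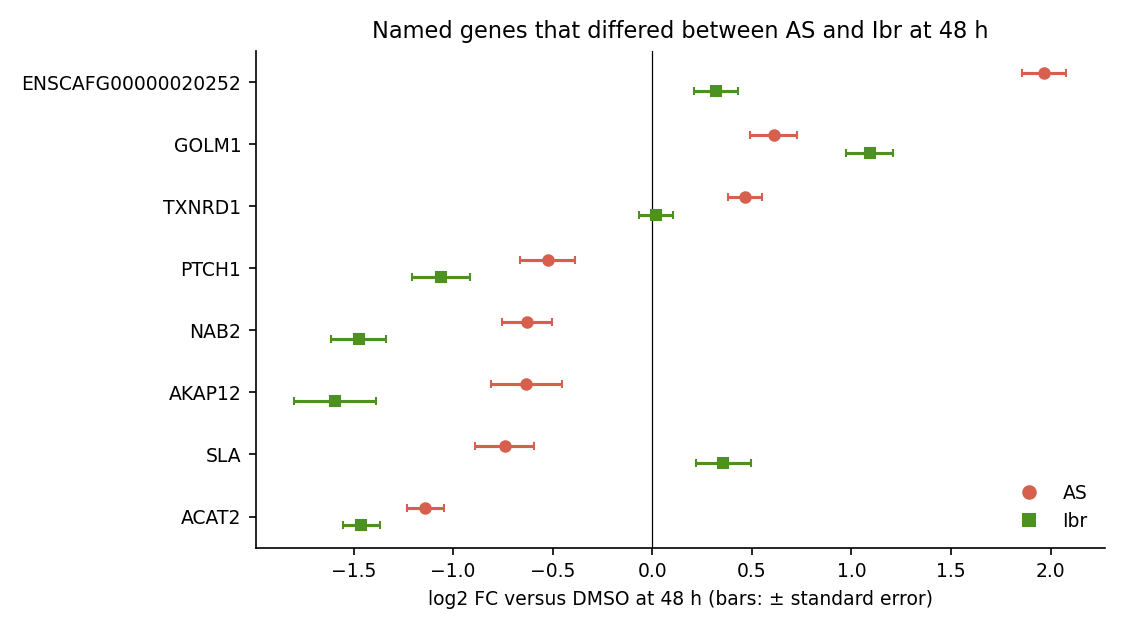
Log2 FC versus DMSO at 48 h of AS (red circles) and Ibr (green squares), with bars for the standard error, for the 8 named genes that passed for AS and differed between AS and Ibr at an adjusted p of at most 0.05. Both use the same DMSO libraries; SLA lies on opposite sides of 0, and ENSCAFG00000020252 is at 1.97 for AS and 0.32 for Ibr.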

How the data were processed

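RNA-seq of CLBL-1 (12 groups of treatment and incubation time, 3 passages, 36 libraries) was used. The authors enriched poly-A RNA, sequenced single-end reads, mapped them with STAR 2.7.5a to CanFam3.1, per the labels, and deposited raw read counts per Ensembl gene. Which strand column was kept is not given in the sources used here. Reads of overlapping and near-identical genes may be shared or lost. Values in CPM and log2 values (prior count 1) were computed here from the deposited counts.

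The fits used edgeR 4.0.16 in R 4.3.3 (TMM, estimateDisp, robust quasi-likelihood fit) and limma 3.58.1, with DESeq2 1.42.0 as an alternative. One fit covered 35 libraries (without replicate 3 of Ibr at 72 h, which the study dropped) and the 18670 genes with at least 2 reads, with group and passage as terms. The standard error is the log2 FC divided by the square root of F. Each comparison of treatments, and each difference between effects at 2 incubation times, is a contrast of this fit. P-values rest on the spread between libraries that remains after the group and passage terms, over passages of 1 cell line. DMSO 24 h replicate 3 carries passage p126 in one label and p128 in another, and p128 was used.

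Passage numbers pair the libraries, as a shared passage is named in the labels and the study adjusted for it. After removal of group means, AS and DMSO at 48 h correlated within passages with r of 0.298, 0.171 and 0.209, and libraries of other groups with a median r of 0.0929 within and -0.0348 between passages (10785 genes, which are not independent). No libraries were identical, and counts of replicates differed by more than sampling noise (chi-square per degree of freedom 3.63 to 13.2). The fit was also run on simulated data with 200 changed genes, drawn without passage or run effects. Genes of low level were not changed there, and the contrast of the AS effect at 48 h with that at 24 h was not included. The simulation thus does not speak to these.

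The comparison and the 22 gene lists were chosen with earlier results of these data known. Named are all DEGs with a symbol, the 10 largest rises and 10 largest falls among the other paired genes at an adjusted p of at most 0.05 and a mean of at least 1 CPM, up to 4 genes of lowest p per list, the genes NHSL1, DSE, PIK3R1, MYC, BCL2 and MYB, and, of the DEGs without a symbol with a mean of at least 1 CPM and 1 direction in every passage, the 2 that rose and the 2 that fell most. No fold change is given where no group had more than 3 reads in every library. Symbols come from the study's supplementary tables, of which parts were at hand. The remaining symbols, gene types, coordinates and sequences are not used here. Gene set tests were not run.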

Additional observations from a re-analysis of the deposited data

Results flagged for a closer look

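Of the named genes, 19 differed in the effect of AS between 72 h and 48 h, and 3 between 48 h and 24 h, at an adjusted p of at most 0.05 in the contrast of the effects. Values are log2 differences of the later effect less the earlier one. Since part of these genes was chosen for its change at 48 h, an effect nearer 0 at the other time is partly built in.

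A fall that was smaller at 72 h than at 48 h, or no longer there, gave positive differences for ENSCAFG00000007609 (2.21, adjusted p = 0.000984), ENSCAFG00000015708 (2.12, adjusted p = 0.00898), TPH2 (1.62, adjusted p = 0.0302), P4HA2 (1.44), SLA (0.80, adjusted p = 0.0163), ACAT2 (0.73) and SQLE (0.47). TPH2 rests on 8 to 32 reads per library at 48 h.

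Lower values at 72 h than at 48 h were found for PSAT1 (-1.58), which had also fallen at 48 h, and, among genes that had not passed then, for IL23A (-1.75, adjusted p = 0.007), TRIB1 (-1.29, adjusted p = 0.0306), SHMT2 (-0.62, adjusted p = 0.00247) and MYC (-0.53, adjusted p = 0.0128). PSAT1 and SHMT2 are enzymes of serine and one-carbon metabolism.

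Genes that were higher with AS at 48 h and below DMSO in value at 72 h were AIG1 (-0.92, adjusted p = 0.003), NFIB (-0.84, adjusted p = 0.0322) and HACD4 (-0.59, adjusted p = 0.0483), and PODXL, an adhesion glycoprotein that had not passed at 48 h, gave -0.84 (adjusted p = 0.00619). Signalling genes with a small negative value at 48 h and a positive one at 72 h were INPP5D (0.46, adjusted p = 0.0386), PRR5 (0.43, adjusted p = 0.0483) and BAK1 (0.44, adjusted p = 0.0494), a pore protein of apoptosis.

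Between 24 h and 48 h, the effect moved to a lower level in A4GALT (-1.44), ACAT2 (-0.81) and SBF1 (-0.53, adjusted p = 0.0226).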

How the results depend on the processing

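Alternatives were DESeq2, RLE factors, filterByExpr, all 36 libraries, only the 6 libraries or the 12 libraries at 48 h, no passage term, glmTreat, the inferred run as a term, each passage left out with all its libraries, and each of the 6 libraries left out. Each gave all 114 DEGs that it tested the same direction. Without the replicate block, 96 DEGs (14 higher, 82 lower) were called, 510 genes passed the p-value, and no count of calls moved by more than 1.5 times. With the run as a term, 100 DEGs were called, 90 of them among the 114, and DESeq2 called 105.

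A test for a log2 FC beyond 1 itself (glmTreat) left 10 DEGs, 1 higher and 9 lower, and 10 genes at an adjusted p of at most 0.05. It left 3 genes between 72 h and 48 h, 0 between 48 h and 24 h (0.728% of all genes at an unadjusted p under 0.05, and 36 past the limits by DESeq2) and 6 between AS and Ibr. With the few lower genes it called, the medians were -0.61 for AS at 24 h, -1.26 for AS at 72 h and 3.68 for DMSO from 24 h to 72 h, and the 1 higher gene had 1.53 for AS at 24 h. Only the 6 libraries gave 34 DEGs higher and 1822 genes at an adjusted p of at most 0.05, and the 12 libraries 40 and 1593, with 116 DEGs between AS and Ibr. The cause was not tested. With filterByExpr the lower genes had a median of -0.72 for AS at 72 h, and with the run as a term 1.63 for DMSO from 24 h to 72 h.

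Leaving out a passage or a library gave 82 to 131 DEGs (14 to 24 higher, 66 to 107 lower), and 355 to 686 genes at an adjusted p of at most 0.05, the lowest without the AS library of passage p121 (377 without passage p128, 425 without its AS and 441 without its DMSO library, and 435 without the DMSO library of passage p121). Between effects at 72 h and 48 h 76 to 146 genes passed, between 48 h and 24 h 13 to 46, and between AS and Ibr 39 to 101. The medians of the lower genes lay between -0.54 and -0.34 for AS at 24 h, -0.97 and -0.68 for AS at 72 h, and 1.36 and 1.64 for DMSO over time, and those of the higher genes between 0.65 and 0.88, 0.44 and 1.07, and -0.45 and -0.013.

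Of the 35 named genes that passed, 10 kept their calls in all fits that leave out a passage or a library, and none changed direction. Outside these fits and glmTreat, calls were lost by HSD17B6, TPH2, SERPINB2, AKAP12, TONSL, HACD4, GKAP1 and RASGEF1C without the replicate block, by HSD17B6, TPH2, SERPINB2, AKAP12, CDC25C, HACD4 and AIG1 with the run as a term, by A4GALT, SERPINB2, GKAP1 and MAN2A1 with all 36 libraries, by HSD17B6, TPH2 and HACD4 with DESeq2, by HACD4 and GKAP1 with RLE factors, and by HACD4 with filterByExpr. Direction changed in genes that had not passed: over the fits that leave out a passage or a library, the log2 FC ranged from -0.853 to 0.0762 for IL5, from -0.149 to 0.0162 for CITED2, from -0.132 to 0.0464 for BCL2, from -0.0061 to 0.106 for PIK3R1, from -0.0835 to 0.168 for ANXA1 and from -0.187 to 0.121 for ERBB3, which had -0.00099 with the 12 libraries at 48 h. At this depth 3 reads are up to 0.249 CPM, and differences in genes below 1 CPM rest on few reads.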

Other observations

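Values of a few further genes in the comparison of AS with DMSO at 48 h are given here. DSE, a dermatan sulfate epimerase, had 303, 316 and 296 CPM with DMSO and 334, 352 and 335 CPM with AS at 48 h, without overlap, and a log2 FC estimated at 0.16 (standard error 0.09, adjusted p = 0.451). NHSL1 had 2.17, 2.18 and 2.39 CPM with DMSO and 1.5, 2.05 and 2.3 CPM with AS, a log2 FC estimated at -0.21 (standard error 0.28, adjusted p = 0.84). ITGA4, an integrin chain of lymphocytes, had 196 to 238 CPM with DMSO and 281 to 298 CPM with AS, a log2 FC estimated at 0.41 (standard error 0.15, adjusted p = 0.151), and was higher in each passage. RPL10A, a ribosomal protein, had 678 to 721 CPM with DMSO and 795 to 888 CPM with AS, a log2 FC estimated at 0.27 (standard error 0.10, adjusted p = 0.114). In both the groups did not overlap, which alone occurred in 20% of all genes.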
